A study of Mus musculus with 6 samples.

Results

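The T cell receptor complex genes described here are *Cd3d*, *Cd3e*, *Cd3g*, *Cd247*, *Cd4*, *Cd8a*, *Cd8b1*, *Lck*, *Cd28* and *Foxp3*, measured by RNA-seq in inguinal white adipose tissue (iWAT), a subcutaneous fat depot. They were chosen by symbol, with their levels in these mice already known, and all 10 were found among the 55573 genes listed. Per-mouse values below follow the order of mice 1, 2 and 3 of each genotype. Each of the 6 libraries came from 1 male C57BL/6NTac mouse, 3 months old, kept on a regular chow diet with no treatment. The 3 mutant mice carried the THRA K283Q/K288R double substitution, which removes a sumoylation site of thyroid hormone receptor alpha. It was a homozygous knock-in present in every cell type, T cells and the cells of lymphoid tissue included, and the 3 Wt mice lacked it. Nothing in the labels ties a mutant mouse to a Wt mouse, and *Thra* itself was at 147, 128 and 117 normalized CPM (reads of a gene scaled by the authors to the size of the library) in the Wt mice and at 169.8, 139.9 and 137 in the mutant mice, the log2 fold change being 0.19 (SE 0.13; limma, adjusted p = 0.404), which does not check the substitution.

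T cells recognise antigen through a receptor of an alpha and a beta chain, or a gamma and a delta chain, held in a complex with the CD3 chains. *Cd3d*, *Cd3e* and *Cd3g* encode the CD3 delta, epsilon and gamma chains and *Cd247* the zeta chain, which carries the signal into the cell. *Cd4* and the pair *Cd8a* and *Cd8b1* encode the coreceptors that separate helper from cytotoxic T cells, *Lck* the kinase that phosphorylates the complex, *Cd28* the costimulatory receptor and *Foxp3* the transcription factor of regulatory T cells. Adipose tissue holds resident T cells, among them regulatory T cells. The inguinal fat pad also encloses a lymph node, in which naive T cells and B cells are dense, so that RNA of a dissected pad can come from both. In libraries of whole tissue, fewer T cells and less RNA per T cell cannot be told apart.

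The libraries held 19607423 to 24228381 reads on genes, and 3 reads correspond to 0.126 to 0.157 normalized CPM. Mutant mouse 1 stood apart from the other 5 mice in lymphocyte genes and is described separately throughout. Over the 16868 genes tested its median level was 101% of the median of the other 5 mice, and the 8 macrophage genes examined had a median of 100.1% and the 6 adipocyte genes of 129%. The 10 B cell genes had a median of 0.448%. No note on dissection was given for any mouse.

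The stretch upstream of the RefSeq start of transcription is shown for 3 CD3 chains and for *Lck* as examples. The windows of *Cd247*, *Cd8a* and *Foxp3* were searched too but are not printed. The RefSeq promoter table for GRCm38.p6 (the same assembly as mm10) held 7 of the 10 genes, and *Cd4*, *Cd8b1* and *Cd28* were not among them. Each sequence below is the 250 bases before the RefSeq start, read 5′ to 3′ on the strand of the gene, with *Cd3d* at chr9:44981536-44981785 (+), *Cd3e* at chr9:45009612-45009861 (-), *Cd3g* at chr9:44980432-44980681 (-) and *Lck*, at the more distal of its 2 starts, at chr4:129573642-129573891 (-). Capitals mark 3 motifs searched on both strands: the Ets core AGGAAG (or CTTCCT), the Runx core TGTGGT (or ACCACA) and the E-box CACCTG (or CAGGTG). The motifs share no overlap with one another in these windows. For *Cd3e* the RefSeq start differs from GENCODE M21, where the gene begins at 45009627 on the minus strand. The last bases of its window, with most of the later of its 2 Ets matches, thus lie inside the GENCODE gene. The bases after this RefSeq start were not found in a GENCODE transcript of *Cd3e*, unlike those of the other windows printed.
Cd3d: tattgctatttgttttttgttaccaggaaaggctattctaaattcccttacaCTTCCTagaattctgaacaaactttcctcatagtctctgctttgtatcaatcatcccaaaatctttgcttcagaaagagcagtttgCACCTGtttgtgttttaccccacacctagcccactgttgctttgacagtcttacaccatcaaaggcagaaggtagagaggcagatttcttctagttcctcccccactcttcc
Cd3e: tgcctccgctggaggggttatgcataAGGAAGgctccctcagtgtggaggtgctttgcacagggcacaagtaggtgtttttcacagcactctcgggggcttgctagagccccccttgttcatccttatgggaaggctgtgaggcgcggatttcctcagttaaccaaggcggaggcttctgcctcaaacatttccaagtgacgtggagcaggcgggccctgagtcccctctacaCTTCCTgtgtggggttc
Cd3g: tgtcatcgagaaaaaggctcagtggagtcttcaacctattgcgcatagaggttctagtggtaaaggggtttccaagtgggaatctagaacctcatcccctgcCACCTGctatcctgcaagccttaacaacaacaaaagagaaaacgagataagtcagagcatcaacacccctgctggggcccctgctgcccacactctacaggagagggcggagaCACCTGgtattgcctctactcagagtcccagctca
Lck: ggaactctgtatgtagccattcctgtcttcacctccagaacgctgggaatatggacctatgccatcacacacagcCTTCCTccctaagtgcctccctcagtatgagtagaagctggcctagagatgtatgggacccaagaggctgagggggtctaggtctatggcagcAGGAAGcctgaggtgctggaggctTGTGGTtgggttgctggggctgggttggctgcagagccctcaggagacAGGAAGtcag
The Ets core was present upstream of 5 of the 7 genes (*Cd3d*, *Cd3e*, *Cd247*, *Lck* and *Foxp3*), and 29.5% of the 32851 windows of this length in the table hold it. The E-box was present upstream of 4 of the 7 (*Cd3d*, *Cd3g*, *Cd247* and *Lck*), against 17.2% of all windows, and the Runx core upstream of *Lck* alone, against 14.0%. *Lck* and *Foxp3* were each counted over 2 windows. *Cd8a* held none of the 3 in its window. *Cd3d*, *Cd3e* and *Cd3g* lie close together on chromosome 9, as *Cd8a* and *Cd8b1* do on chromosome 6. A match describes the letters and not binding.

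The 10 genes rose and fell together across the mice, and mutant mouse 1 had the lowest value of the 6 for all 10 of them. Among all genes tested, mutant mouse 1 was the lowest for 5055 of 16868. In the other 5 mice, Wt mouse 1 was the lowest and Wt mouse 3 the highest for all 10, and mutant mice 2 and 3 lay between Wt mice 1 and 2. The highest of these 5 values was 2.91 (*Cd28*) to 4.88 (*Cd4*) times the lowest, so that mice of the same genotype differed more from each other than mutant mice 2 and 3 did from the Wt mean.

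**Figure D1:**
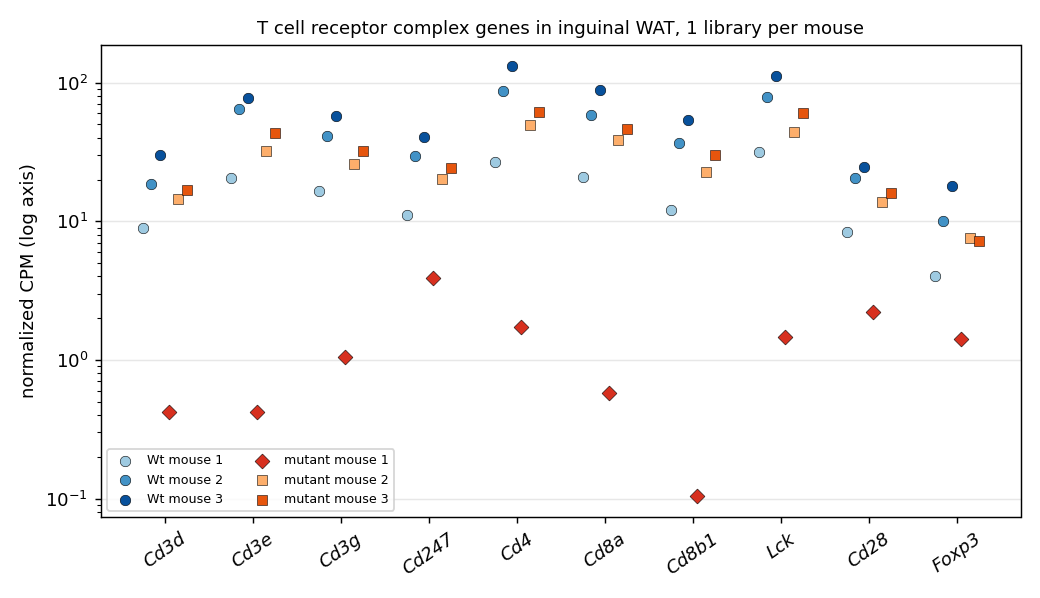
Normalized CPM (log axis) of the 10 T cell receptor complex genes, with 1 point per mouse: circles for Wt, squares for mutant mice 2 and 3, a diamond for mutant mouse 1. The diamond lies below every other point for each gene, and the other 5 mice keep nearly the same order from gene to gene, with Wt mouse 1 lowest and Wt mouse 3 highest.

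*Cd3d* (ENSMUSG00000032094, chromosome 9, 44981786 to 44987339 in GRCm38, plus strand) encodes the delta chain of CD3. It was at 8.97, 18.6 and 30.1 normalized CPM in the Wt mice, at 14.4 and 16.8 in mutant mice 2 and 3 and at 0.419 in mutant mouse 1. The genotypes overlapped, at 19.2 ± 10.6 (SD, n = 3) for Wt and 10.5 ± 8.85 (SD, n = 3) for mutant, the log2 fold change being -1.51 (SE 1.15; limma, adjusted p = 0.448). *Cd3e* (ENSMUSG00000032093, chromosome 9, 44998740 to 45009627, minus strand), the epsilon chain, was at 20.4, 64.1 and 78 in the Wt mice, 32.3 and 43 in mutant mice 2 and 3 and 0.419 in mutant mouse 1. Mutant mouse 1 again lay far below every other mouse, and both other mutant mice lay inside the Wt range. Its means were 54.2 ± 30.03 (SD, n = 3) for Wt and 25.2 ± 22.2 (SD, n = 3) for mutant, the log2 fold change being -2.11 (SE 1.48; limma, adjusted p = 0.417). *Cd3g* (ENSMUSG00000002033, chromosome 9, 44969572 to 44980431, minus strand), the gamma chain, was at 16.4, 41.4 and 57.5 in the Wt mice and at 1.05, 25.98 and 31.96 in the mutant mice, the log2 fold change being -1.65 (SE 1.19; limma, adjusted p = 0.428). The 3 chains thus had the same order of mice.

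*Cd247* (ENSMUSG00000005763, chromosome 1, 165788681 to 165877277, plus strand), the zeta chain, was at 11.1, 29.6 and 40.3 in the Wt mice and at 3.88, 20.1 and 24.3 in the mutant mice. The order of the mice was that of the CD3 chains, but the value of mutant mouse 1 was less far below the others. The genotype means were 27.02 ± 14.8 (SD, n = 3) for Wt and 16.1 ± 10.8 (SD, n = 3) for mutant, the log2 fold change being -0.89 (SE 0.76; limma, adjusted p = 0.495). Its annotated exons share 3007 bases with *Pou2f1*, a widely expressed transcription factor gene on the other strand. *Pou2f1* was at 22.2, 33.7 and 30.8 in the Wt mice against 17.9, 23.2 and 30.4 in the mutant mice. As the use of strand in the counting is not given in the sources used here, reads of these genes cannot be told apart over the shared bases.

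Of the coreceptors, *Cd4* (ENSMUSG00000023274, chromosome 6, 124864692 to 124888221, minus strand) was at 26.9, 87.04 and 132 in the Wt mice, 49.9 and 61.02 in mutant mice 2 and 3 and 1.73 in mutant mouse 1. It had the widest spread of the 10 genes among the other 5 mice, and the genotypes overlapped, the log2 fold change being -1.84 (SE 1.33; limma, adjusted p = 0.428). *Cd8a* (ENSMUSG00000053977, chromosome 6, 71373427 to 71379173, plus strand) was at 20.99, 58.3 and 88.4 in the Wt mice against 0.576, 38.6 and 46.2 in the mutant mice, the log2 fold change being -1.95 (SE 1.47; limma, adjusted p = 0.446). *Cd8b1* (ENSMUSG00000053044, chromosome 6, 71322788 to 71337494, plus strand), which encodes the beta chain that pairs with CD8 alpha on conventional cytotoxic T cells, was at 12.02, 36.6 and 54.1 in the Wt mice against 0.105, 22.5 and 29.8 in the mutant mice, the log2 fold change being -1.97 (SE 1.52; limma, adjusted p = 0.452). In mutant mouse 1 it rested on 2 reads, which is under the floor of 3 reads, against 501 and 637 reads in mutant mice 2 and 3.

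*Lck* (ENSMUSG00000000409, chromosome 4, 129548344 to 129573641, minus strand) was at 31.7, 78.8 and 112 in the Wt mice against 1.47, 43.8 and 60.6 in the mutant mice. Mutant mice 2 and 3 lay within the Wt range and mutant mouse 1 far below it, the log2 fold change being -1.92 (SE 1.31; limma, adjusted p = 0.408). *Cd28* (ENSMUSG00000026012, chromosome 1, 60716800 to 60773359, plus strand) was at 8.42, 20.7 and 24.5 in the Wt mice against 2.20, 13.8 and 15.9 in the mutant mice, with the narrowest spread of the 10 genes among the other 5 mice. Its genotypes overlapped, the log2 fold change being -0.97 (SE 0.75; limma, adjusted p = 0.458). *Foxp3* (ENSMUSG00000039521, chromosome X, 7573644 to 7595245, plus strand) had the lowest median level per length of exon and was at 4.02, 10.1 and 18.01 in the Wt mice against 1.41, 7.58 and 7.21 in the mutant mice, the log2 fold change being -0.96 (SE 0.72; limma, adjusted p = 0.440). It was the 1 gene of the 10 in which mutant mouse 2 was above mutant mouse 3. Exons of *Ppp1r3f* and *Ccdc22* on the other strand share 266 and 590 bases with it, at 0.838 to 2.52 for *Ppp1r3f* and 0.105 to 0.754 for *Ccdc22*. In mutant mouse 1, *Ppp1r3f* was at 0.838 and *Ccdc22* at 0.105 beside 1.41 for *Foxp3*, and over the shared bases their reads cannot be told apart. *Flicr*, a gene on the same strand, shares 853 bases with it.

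None of the 10 genes passed the genotype test, by limma with a false discovery rate of 0.05 over all 16868 genes, against 8.11% of all genes (5.5% higher and 2.61% lower in mutant mice). The number at an unadjusted p under 0.05 was also 0, and edgeR's quasi-likelihood test and the Wald test of DESeq2 on the recovered reads called 0 as well. The fold changes were all below 0, from -2.11 to -0.89 on the log2(value + 0.5) scale with a median of -1.75, beside a median of -0.05 over all genes tested, and their standard errors were 0.72 to 1.52. For none of the 10 did the genotypes fail to overlap, whereas 30.6% of all genes tested did not overlap. Without mutant mouse 1 the fold changes lay between -0.34 and -0.10, with a median of -0.21 beside -0.04 over all genes and standard errors of 0.42 to 0.60. *Cd3e* was then at -0.33 (SE 0.53; limma, adjusted p = 0.808) and *Lck*, with the fold change farthest from 0, at -0.34 (SE 0.49; limma, adjusted p = 0.776). The number called was again 0, with 0 at an unadjusted p under 0.05, against 6.03% of 17294 genes. Leaving out mutant mouse 1 thus moved the median log2 fold change from -1.75 to -0.21. A difference of the size of these standard errors could not be resolved with 2 mutant and 3 Wt mice.

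**Figure D2:**
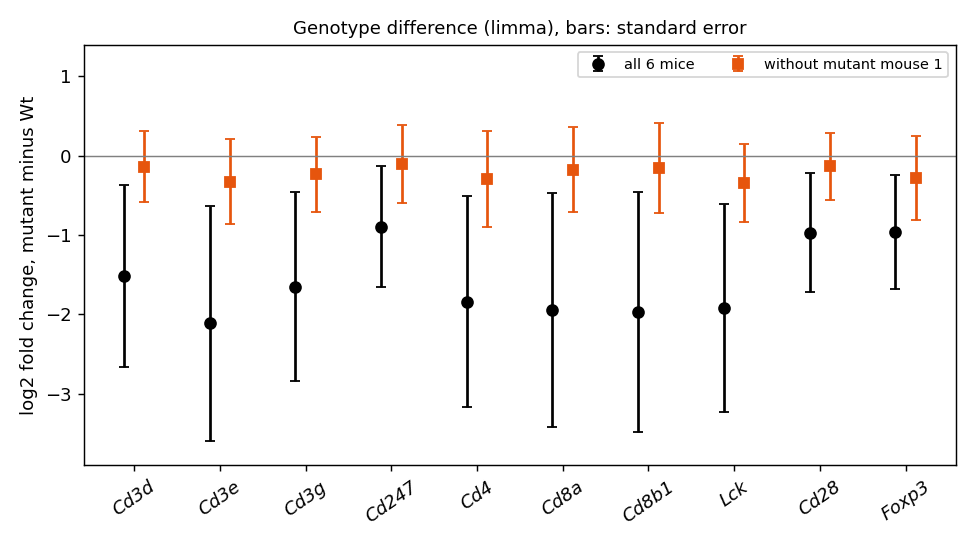
Log2 fold change on the log2(value + 0.5) scale, mutant minus Wt, of each gene by limma, with bars for the standard error, from all 6 mice (black circles) and without mutant mouse 1 (orange squares). The black points lie between -2.11 and -0.89 with wide bars, and the orange points lie between -0.34 and -0.10, each within 1 standard error of 0.

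The level left in mutant mouse 1 differed between the genes. As a share of the median of the other 5 mice, with exact Poisson intervals that cover the counting error of mutant mouse 1 only, it was 0.352% (95% interval 0.0426 to 1.27) for *Cd8b1*, 0.975% (95% interval 0.421 to 1.92) for *Cd3e* and 1.25% (95% interval 0.622 to 2.23) for *Cd8a*. It was 2.42% for *Lck*, 2.49% for *Cd3d*, 2.83% for *Cd4* and 3.28% for *Cd3g*. These 7 genes were under 10%, as were 3.33% of all genes tested. The other 3 genes kept more: *Cd28* 13.9% (95% interval 10 to 18.8), *Cd247* 15.97% (95% interval 12.5 to 20.05) and *Foxp3* 18.7% (95% interval 12.3 to 27.1). Their intervals lie above those of the first 7 genes and overlap each other. Because mutant mouse 1 was set apart by these values, they are a description and were not tested.

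**Figure D3:**
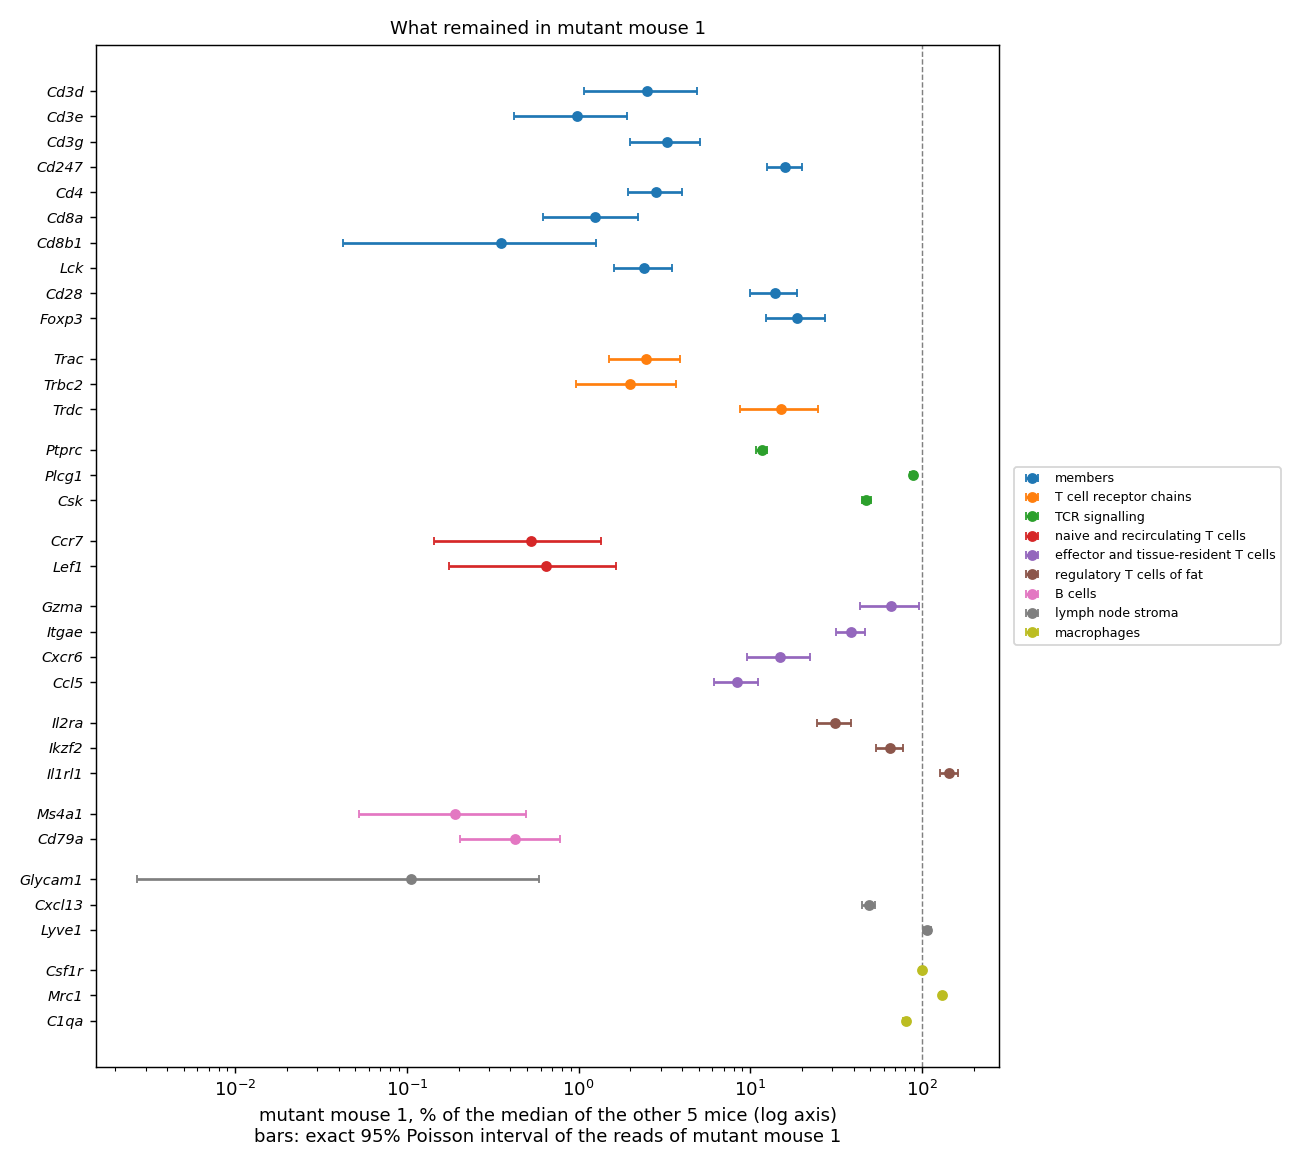
Level of each gene in mutant mouse 1 as a percentage of the median of the other 5 mice (log axis), with exact 95% Poisson intervals of the reads of mutant mouse 1. Of the 10 T cell receptor complex genes at the top, 7 lie between 0.352% and 3.28% and 3 between 13.9% and 18.7%, the 2 B cell genes plotted lie under 1%, and the 3 macrophage genes plotted lie between 80.3% and 130.5%, on both sides of the dashed line at 100%. Below the 10 genes, the points are chosen genes of each list and not whole lists.

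Per length of exon, the order of the genes among the other 5 mice was *Lck*, *Cd8b1*, *Cd4*, *Cd8a*, *Cd3e*, *Cd3g*, *Cd3d*, *Cd247*, *Cd28* and *Foxp3*, with median levels from 20.7 to 1.66 normalized CPM per kb. Each gene was above the next in all 5 mice except that *Lck* was above *Cd8b1* in 4 of 5 and *Cd3e* above *Cd3g* in 3 of 5. The 3 CD3 chains were close to equal per kb in Wt mouse 1 (4.94, 5.01 and 5.02 for *Cd3d*, *Cd3e* and *Cd3g*) and in mutant mouse 2 (7.91, 7.92 and 7.95). In Wt mouse 2 they were at 10.2, 15.7 and 12.7, in Wt mouse 3 at 16.6, 19.1 and 17.6 and in mutant mouse 3 at 9.28, 10.5 and 9.78. In mutant mouse 1 the order was another, with *Cd247* (0.728 per kb) first, *Lck* (0.501) and *Cd4* (0.429) next and *Cd3e* (0.103) and *Cd8b1* (0.0707) last.

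To describe the makeup of the T cell signal within a mouse, reads were set against the sum of the *Cd3d*, *Cd3e* and *Cd3g* reads, which was 36 in mutant mouse 1 and 1094 to 3937 in the other 5 mice. Per 100 CD3 reads, *Lck* was at 77.8 (95% interval 45.7 to 131) against 60.3 to 69.1 in the other mice and *Cd4* at 91.7 (95% interval 55.4 to 151) against 58.8 to 79.4. These 2 genes kept their ratio to CD3 within the counting error. *Trac*, the constant part of the receptor alpha chain, did so too, at 52.8 (95% interval 28.6 to 94.5) against 43.7 to 48.97. *Cd8a* was at 30.6 (95% interval 14.03 to 61.4) against 45.8 to 53.4 and *Cd8b1* at 5.56 (95% interval 0.648 to 21.6) against 26.2 to 32.7, and the interval of *Cd8b1* lies below all 5 other mice. The remaining 3 genes were higher relative to CD3 in mutant mouse 1. *Foxp3* was at 75.0 (95% interval 43.8 to 127) against 7.85 to 10.9, *Cd28* at 117 (95% interval 72.96 to 187) against 14.8 to 18.96 and *Cd247* at 206 (95% interval 136 to 315) against 23.9 to 27.7, each above every other mouse beyond the counting error. In mutant mouse 1, *Cd247* was at 3.88 and *Pou2f1*, with which it shares exonic bases, at 17.9, and *Foxp3* at 1.41 and its overlapping gene *Ppp1r3f* at 0.838. The part of reads from these genes in the shares and ratios of *Cd247* and *Foxp3* was not tested. Nor was the part of cells other than T cells in the *Cd247* ratio. The 5 natural killer cell genes examined had a median of 42.5% of the other mice in mutant mouse 1.

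The balance of the coreceptors was nearly the same in the other 5 mice. *Cd8a* made up 43.8%, 40.1% and 40.2% of the *Cd4* plus *Cd8a* reads of Wt mice 1, 2 and 3, respectively, and 43.6% and 43.1% of those of mutant mice 2 and 3, although the sum of these reads differed several-fold between mice. In mutant mouse 1 it made up 25% (exact binomial 95% interval 13.2 to 40.3), which reaches below the other mice but overlaps the intervals of Wt mice 2 and 3. *Cd8b1* made up 36.4% to 39.2% of the *Cd8a* plus *Cd8b1* reads in the other 5 mice. It was 15.4% in mutant mouse 1 (2 of 13 reads, exact binomial 95% interval 1.92 to 45.4), a range that holds the values of the other mice. These intervals cover counting error only, since PCR copies of 1 molecule are not independent.

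In mutant mouse 1, *Ccr7* was lower and 4 genes of effector and tissue-resident T cells were higher relative to CD3, whereas the whole lists of naive and of effector genes kept similar medians of 17.01% and 22.6% of the other mice. *Ccr7*, the receptor that leads T cells into lymph nodes, was at 11.1 (95% interval 2.87 to 31) against 42.3 to 48.3 reads per 100 CD3 reads. Its interval lies below all 5 other mice. *Ccr7* is also expressed by B cells, and in mutant mouse 1 it was at 0.525% of the median of the other mice. *Gzma* (granzyme A) was at 75.0 (95% interval 43.8 to 127) against 1.14 to 5.30, *Ccl5* at 131 (95% interval 82.8 to 207) against 27.4 to 68, *Cxcr6* at 66.7 (95% interval 38.05 to 115) against 8.77 to 16.1 and *Itgae* (CD103) at 303 (95% interval 206 to 454) against 14.5 to 26.2. All 4 lie above the other 5 mice beyond counting error. In absolute terms *Gzma* was at 2.43, 1.41 and 2.15 in the Wt mice against 1.41, 2.29 and 1.92 in the mutant mice, so mutant mouse 1 and Wt mouse 2 had nearly the same level. *Gzma* and *Ccl5* are also made by natural killer cells and *Itgae* by dendritic cells, and the 5 natural killer genes examined had a median of 42.5% of the other mice in mutant mouse 1 and the 7 dendritic cell genes of 34.7%. Their part in the ratios was not tested.

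**Figure D4:**
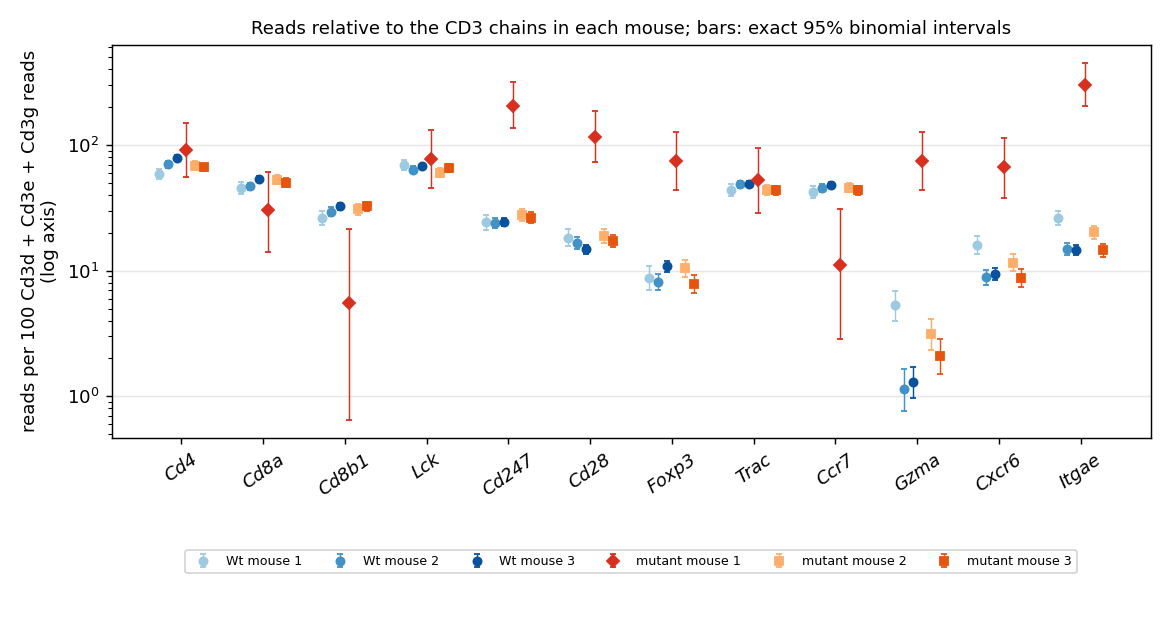
Reads of each gene per 100 reads of *Cd3d*, *Cd3e* and *Cd3g* together in each mouse (log axis), with exact 95% binomial intervals. Mutant mouse 1 (diamond) lies with the other mice for *Cd4*, *Lck* and *Trac*, below them for *Cd8b1* and *Ccr7*, and above them for *Cd247*, *Cd28*, *Foxp3*, *Gzma*, *Cxcr6* and *Itgae*.

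The chains of the receptor itself were also lowest in mutant mouse 1. Of the 7 genes of constant receptor chains tested, 0 passed the genotype test, and mutant mouse 1 was the lowest of the 6 mice for all 7, with a median of 2.90% of the other 5 mice. *Trac* was at 20.2, 60.3 and 81.1 in the Wt mice against 0.996, 31.8 and 40.1 in the mutant mice. *Trbc2*, of the beta chain, was at 10.8, 27.8 and 47.3 against 0.524, 18.5 and 26.2, and *Trbc1* at 7.12, 16.8 and 25.5 against 0.472, 11.4 and 16.2. *Trdc*, of the delta chain of gamma delta T cells, was at 3.52, 5.74 and 8.16 against 0.838, 4.58 and 5.52, which left 15.2% (95% interval 8.68 to 24.7) in mutant mouse 1 against 2.48% (95% interval 1.49 to 3.88) for *Trac*. Of the 128 variable segments of the alpha chain listed, 2 had a read in mutant mouse 1, with 2 reads in all, against 40 to 64 segments and 93 to 410 reads in the other mice. Of the 35 beta segments, 9 had a read (16 reads), against 21 to 23 segments and 393 to 1559 reads. On the 7 gamma segments there were 2 reads in mutant mouse 1 and 26 to 66 in the others. For the 6 delta segments the reads were 11 in mutant mouse 1 and 23 to 42 in the others. The number of segments seen falls with the reads, and the depth of mutant mouse 1 allows no statement on diversity. The variable segments were chosen after the values were seen.

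Of the 20 genes of T cell receptor signalling tested, 0 passed the genotype test (median log2 fold change -1.08, without mutant mouse 1 -0.22), and mutant mouse 1 was the lowest for 19. The median share left in mutant mouse 1 was 8.70%. *Ptprc*, which encodes the leukocyte marker CD45, was at 187, 407 and 467 in the Wt mice against 40.3, 258 and 346 in the mutant mice. *Plcg1*, a phospholipase, kept 88.5% and *Csk*, a kinase that restrains Lck, 47.5%, and both are also used by other cells. *Zap70*, the kinase recruited to the zeta chain, kept 5.68% and *Lat*, the adaptor it phosphorylates, 2.37%. The last 2 were named after their values were seen. Of the 13 T cell identity genes 0 passed (median log2 fold change -1.46), with a median of 3.39% left. *Tcf7*, a transcription factor of naive T cells, was at 37.9, 121 and 164 in the Wt mice against 1.68, 61.3 and 83.4 in the mutant mice, while *Ets1* and *Thy1*, which other cells also express, kept 26.8% and 29.7%.

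In the family of *Cd28* and its ligands the share left in mutant mouse 1 varied from gene to gene, with a median of 12.7%. Of 9 genes tested 0 passed (median log2 fold change -0.92), mutant mouse 1 was the lowest for all 9, and *Pdcd1* and *Pdcd1lg2* were at 0 reads in it, which allows up to 0.157. *Icosl*, a ligand of the receptor ICOS, was at 59.99, 95.9 and 115 in the Wt mice against 13.1, 66.01 and 84.8 in the mutant mice. *Btla*, an inhibitory receptor of B and T cells, kept 1.48% in mutant mouse 1. Unlike the T cell receptor complex genes, it was highest in mutant mouse 3, at 100.9 against 100.5 in Wt mouse 3. *Cd274*, which encodes PD-L1 and is expressed by many cell types, kept 79.03%.

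Among the 14 effector and tissue-resident T cell genes tested, 1 was called lower in mutant mice, *Zfp683*, which encodes the transcription factor Hobit of tissue-resident lymphocytes. Of all genes, 2.61% were called lower. *Zfp683* was at 2.09, 2.04 and 2.48 in the Wt mice against 0.734, 0.269 and 0.515 in the mutant mice, on 6 to 59 reads per mouse, and the genotypes did not overlap. It fell by 1.45 on the log2 scale (SE 0.21; limma, adjusted p = 0.0112), and without mutant mouse 1 its fold change was -1.61 (SE 0.21; limma, adjusted p = 0.00915). In 2 of the 6 fits that left out 1 mouse the call was lost, with an adjusted p of up to 0.0561. Unlike the CD3 chains, *Zfp683* was not lowest in mutant mouse 1. *Il2rb*, a receptor chain for interleukins 2 and 15, was at 31.97, 55.3 and 71.3 against 5.35, 29.3 and 30.6 and did not pass, and *Itga1*, which many cells express, kept 97.8%. The list's median fold change was -1.04, and -0.65 without mutant mouse 1.

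Among the 10 genes of fat regulatory T cells tested, 1 was called lower, *Gata3*, a transcription factor of helper and regulatory T cells and of other cells of fat. It was at 14.7, 8.27 and 11.7 in the Wt mice against 1.36, 4.17 and 3.88 in the mutant mice, and fell by 1.80 on the log2 scale (SE 0.40; limma, adjusted p = 0.0441). Without mutant mouse 1 its fold change was -1.38 (SE 0.24; limma, adjusted p = 0.0252), and the call was lost in the 5 fits that left out any other mouse, with an adjusted p of up to 0.139. It held under 6 of the 11 other settings tried. *Il2ra*, the interleukin 2 receptor alpha chain, was at 9.89, 14.2 and 20.4 against 4.14, 13.4 and 11.9, and *Ikzf2* (Helios) at 8.92, 11.9 and 12.5 against 6.71, 9.92 and 10.3. *Il1rl1*, the receptor of interleukin 33, was at 8.97, 9.82 and 9.47 against 14.1, 13.6 and 10.6, with mutant mouse 1 the highest. Its genotypes did not overlap, as was so for 30.6% of all genes tested. None of these 3 passed the test. The median share left in mutant mouse 1 over the list was 29.5%, beside 18.7% for *Foxp3* and 0.975%, 2.49% and 3.28% for *Cd3e*, *Cd3d* and *Cd3g*. Fat regulatory T cells are not the only source of these genes, and *Il1rl1* and *Gata3* are also genes of group 2 innate lymphoid cells.

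Naive and recirculating T cell genes were mixed in mutant mouse 1. Of the 8 tested 0 passed (median log2 fold change -0.75), and 4 kept under 10%, among them *Ccr7*, *Lef1* and *Dapl1*, the last at 0 reads, whereas *S1pr1* and *Igfbp4*, which stromal and endothelial cells also express, kept 73.1% and 128%. Of the 5 genes of gamma delta T cells tested 0 passed (median log2 fold change -0.15). *Cd163l1* kept 16.9% in mutant mouse 1, *Blk*, which B cells also express, 0.840%, and *Zbtb16* and *Sox13* 156% and 99.3%.

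B cell genes were lowest in mutant mouse 1, as the T cell receptor complex genes were, and the lymph node stroma genes were mixed. The summed level of the 10 B cell genes was 617, 1271 and 1348 in the Wt mice and, for the mutant mice, 11.7, 775 and 1199. None of them passed the genotype test (median log2 fold change -2.30, without mutant mouse 1 -0.10), mutant mouse 1 was the lowest for all 10, and all 10 kept under 10%. *Cd79a*, a signalling chain of the B cell receptor, was at 65.2, 129 and 145 in the Wt mice against 0.524, 79.7 and 123 in the mutant mice. Relative to CD3, *Cd79a* was at 27.8 (95% interval 12.3 to 57.1) against 87.8 to 142 reads per 100 CD3 reads and *Ms4a1* (CD20) at 11.1 (95% interval 2.87 to 31) against 66.04 to 135, and the intervals of both lie below the other 5 mice. *Glycam1*, made by the high endothelial venules of lymph nodes, was at 12.4, 37.2 and 57.8 against 0.0524, 49.5 and 61.2, with 1 read in mutant mouse 1. *Madcam1*, an addressin of vessels, kept 2.92% (95% interval 0.0739 to 16.3), also on 1 read in mutant mouse 1. *Cxcl13*, a chemokine of B cell follicles, kept 48.9%. Of 12 lymph node stroma genes listed 11 were found, and the 9 tested had a median of 48.9% left, with 3 under 10% and mutant mouse 1 the lowest for 5 (median log2 fold change -0.21, without mutant mouse 1 0.26). *Lyve1* and *Enpp2*, also expressed outside lymph nodes, kept 107% and 87.3%, and *Ccl21a* was listed at 0 in all 6 mice. How much of a lymph node each dissected pad held, and its part in the level of the T cell genes, was not tested.

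The summed level of the 5 natural killer cell genes was 12.1, 16.2 and 17.6 in the Wt mice and, for the mutant mice, 3.83, 12.9 and 13.8. For the 8 macrophage genes it was 954, 916 and 1016 in the Wt mice and, for the mutant mice, 1028, 951 and 827, and for the 6 adipocyte genes 18964, 14589 and 13282 in the Wt mice and, for the mutant mice, 17599, 14260.2 and 11181. In the last 2 lists mutant mouse 1 lay within or close to the range of the other mice. Of these lists and the dendritic cell list (median log2 fold change -0.91), the 1 gene called was *C1qa*, a complement gene of macrophages, at 149, 150.1 and 168 in the Wt mice against 120.1, 109.99 and 100.1 in the mutant mice. It fell by 0.50 on the log2 scale (SE 0.10; limma, adjusted p = 0.0305). Its call held without mutant mouse 1 and was lost in the 5 fits that left out any other mouse, with an adjusted p of up to 0.116.

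The genes other than these 10 whose pattern over the 6 mice was most like the mean pattern of the 10 genes were *Ms4a4b*, *Galnt6*, *Skap1*, *St8sia1*, *Fam169b*, *A430078G23Rik*, *Carmil2*, *Dusp2*, *Cd27* and *Rasgrp1*. Likeness was the root mean square difference of centred log2 values, which was 0.0933 for *Ms4a4b* and 0.14 for *Rasgrp1*, where the shared pattern spans 5.10 on the log2 scale. The 10 genes themselves differed from their own mean pattern by 0.0748 (*Cd3g*) to 0.755 (*Foxp3*). Over the 5 mice without mutant mouse 1, where the pattern spans 1.90, the most alike were *Skap1* (0.0299), *Trbv12-2* (0.0382), *Ccr7* (0.0589), *Ubash3a* (0.0603), *Nsg2* (0.0628), *Dnah8* (0.0657), *Slc16a5* (0.0673), *Cd40lg* (0.0684), *Themis* (0.0745) and *Cacna1b* (0.0768). The members then differed from their mean pattern by 0.0391 (*Cd3g*) to 0.145 (*Foxp3*). *Skap1*, an adaptor of T cell receptor signalling, was in both sets.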

How the data were processed

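RNA-seq libraries of iWAT from 3 mutant and 3 Wt mice were grouped by the genotype in the labels, with 1 library per mouse, so that p-values measure the spread between animals. Total RNA was extracted with the Qiagen RNeasy Plus kit, and a core facility made, sequenced and analysed the libraries. The submitters' processing notes name mm10, Bowtie2 2.1.0, RSEM 1.2.15 and edgeR without their roles. The use of strand and the annotation are not given in the sources used here. The authors deposited a normalized signal per gene and mouse, CPM with a scaling factor for each mouse. In each mouse 100% of the values were whole multiples of 1 step within 0.01 read, which gave the reads (19607423 to 24228381 per mouse).

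Genes kept by filterByExpr of edgeR 4.0.16 on these reads (16868) were compared between genotypes on log2(value + 0.5) with limma 3.58.1 with trend in R 4.3.3, two-sided, with Benjamini-Hochberg adjustment over all of them and a threshold of 0.05. Fold changes on this scale understate changes of genes with low values. The code was tested on simulated data. Libraries of 1 genotype differed far beyond counting error (19.3 to 64.9 chi-square units per degree of freedom). Coordinates and exon lengths are from GENCODE M21 (99.8% of identifiers matched) and promoters from RefSeq. The intervals are exact binomial or Poisson at 95% and cover counting error only.

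The members and gene lists were chosen with earlier results of these data known, and mutant mouse 1 was set apart by its values. The genes named are the members, *Thra*, genes of the lists that passed the test or were among the 3 highest of their list, the genes of the ratios, and the 10 genes most alike to the members. Others are said to be chosen after their values were seen, and further genes of the lists (*Trdc*, *Lef1*, *Dapl1*, *Glycam1*, *Madcam1*, *Ccl21a*, *Cd163l1*, *Pdcd1*, *Pdcd1lg2*) were also named after the values were seen. The alternatives were other scalings, tests (DESeq2 1.42.0, edgeR quasi-likelihood, limma-voom), filters, pseudocounts, omission of single mice and a replicate block. Further steps ran in Python 3.11.15 with pandas 2.3.3, SciPy 1.17.1 and Matplotlib 3.10.9. Same-numbered mice of the genotypes are different animals. Some genes of the lists are not reported here by name.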

Additional observations from a re-analysis of the deposited data

How the results depend on the processing

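The count of T cell receptor complex genes called was 0 under every scaling, test, filter and pseudocount tried and without any 1 mouse. Their fold changes stayed below 0 in all fits, from -2.53 to -0.72 under the other settings (adjusted p 0.394 to 0.775) and from -3.11 to -0.49 without a mouse other than mutant mouse 1 (adjusted p 0.231 to 0.796). A filter of at least 10 reads in every mouse left 7 of the 10 genes. The share left in mutant mouse 1 ranged over the scalings and left-out mice from 0.783% to 1.11% for *Cd3e* and from 16.0% to 19.1% for *Foxp3*. With a replicate block for the mouse number, 2 genes were called lower, *Cd247* (log2 fold change -0.89, adjusted p = 0.0303, limma) and *Foxp3* (-0.96, adjusted p = 0.0359, limma), and 7 had an unadjusted p under 0.05. Mice sharing a number had deviations from the mean of their genotype whose correlation over genes was 0.686, 0.0573 and 0.560, and Wt mouse 2 correlated better with mutant mouse 3 (0.332), so the numbers were not taken as pairs.

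Of the 131 list genes tested, 3 were called, 11 by the Wald test of DESeq2, 1 of 99 with the 10-read filter, 41 with the replicate block and 0 to 3 without 1 mouse. Over all genes 1368 were called, 2118 by the Wald test of DESeq2, 598 with the 10-read filter, 4063 with the replicate block and 545 (without Wt mouse 2) to 1043 (without mutant mouse 1) with 1 mouse left out. With scaling to library size only, 1019 of 1284 called genes were higher in mutant mice, against 928 of 1368. The causes of these shifts were not tested. The limit of depth is the 36 CD3 reads of mutant mouse 1, on which its ratios rest.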
